A study of Mus musculus with 15 samples.

Results

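Kidney RNA was compared between folic acid and vehicle in mice of the G3 generation bred without telomerase reverse transcriptase (G3 Tert-/-, here G3). The comparison used 8 of the 15 kidney libraries, 4 after folic acid and 4 after vehicle, chosen by their treatment label. Of the 19602 genes in the deposited table, 14651 reached 10 normalised counts in 3 or more of the 15 libraries and were tested. All 8 libraries came from Tert-/- mice of generation 3, so the controls carried the same deletion. At 6 to 8 weeks of age they received 1 intraperitoneal injection, either folic acid at 125 mg/kg (a low dose in the submitters' terms) or 200 µl of 0.3 M NaHCO3 as vehicle, and kidneys were perfused and taken at day 14. The other 7 libraries came from Tert+/+ mice (WT) treated in the same ways, 3 after folic acid and 4 after vehicle. They served here for the shared estimate of spread, for 1 test of difference and for the fit of a term for sex-linked RNA. The labels name male and female mice, do not give the strain, and give kidney as the source of each library. Library numbers such as folic acid 1 follow accession order only.

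Telomerase adds repeats to chromosome ends, and mice bred without it lose telomere length over successive generations. A high dose of folic acid forms crystals in kidney tubules and injures their epithelium. The acute phase is followed by immune cell entry, division of surviving tubule cells and deposition of collagen between the tubules, which makes the model a standard one for kidney fibrosis. Day 14 lies in the phase of repair and scarring.

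Each G3 library held 5014684 to 6168872 reads assigned to genes. Values are normalised counts, that is reads divided by 1 factor per library, and 1 read was worth 0.895 to 1.08 of them in these libraries. The kidney markers were present throughout. All 21 proximal tubule, 14 thick limb and distal tubule, 15 collecting duct and 10 podocyte genes of the lists used were tested, and none of these 60 fell below 26.4 normalised counts in any G3 library. Tert itself was low, at 6.35, 4.70, 3 and 10.7 in folic acid 1 to 4 and 6.10, 2.93, 15.1 and 9.02 in vehicle 1 to 4. These reads come from transcript 3' ends, and which part of the gene was deleted is not stated in the labels, so this level checks nothing.

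Sex-linked RNA did not follow the sex labels and moved with the treatment. The Y share (Ddx3y, Kdm5d, Uty and Eif2s3y of the Y chromosome, summed and divided by the highest sum of any library) was 0.00113 to 0.00873 in the vehicle libraries, all of which held Xist at 3520 or more, although 3 of the 4 are labelled male. After folic acid it was 0.800, 0.0173, 0.771 and 0.315. Folic acid 2 thus resembled the vehicle libraries in sex-linked RNA, folic acid 1 and 3 held Y-linked RNA with Xist at 6.35 and 5.99, and folic acid 4 held both (Xist 2006). Each gene below was fitted without a sex term, and for some genes only the fit with the Y share as a term is given beside it. Where 1 value stands alone, it comes from the fit without a sex term and is not adjusted for the Y share. The Y share term was fitted over all 15 libraries, so the WT libraries also shape the fold changes given with it. Vehicle 3 and 4 were the closest pair of libraries and were kept as 2 libraries as labelled. Their chi-square, averaged over genes, was 2.76. The next pair was folic acid 2 with vehicle 3, at 7.95. Folic acid 2 stood at 18.6, 18.4 and 9.75 from vehicle 1, 2 and 4. From folic acid 1, 3 and 4 it stood at 13.9, 25.5 and 14.2. By Spearman correlation across genes folic acid 2 was nearest to folic acid 4 (0.9699), with vehicle 3 at 0.969. Vehicle 1 to 3 carry title numbers of another series than vehicle 4 and all folic acid libraries, so any batch that follows the titles rests on vehicle 4 alone. With the title series as a term limma called 0 genes, with 615 at an unadjusted p under 0.05. Vehicle 1 also held the most adipose RNA (3903 summed normalised counts over the list, against 224 to 796 in the other 7 libraries) and urothelial RNA (550.2 against 18.98 to 215), and their part in the results was not tested.

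Genes that rose after folic acid included the macrophage receptors Fcgr1 and Itgam, the macrophage growth factor Il34, complement C4b, the injury gene Clu and the mitosis gene Cenpf. Genes that fell included Alas2 and Hba-a2 of red cell precursors, the tubule transporters Slc10a2 and Aqp4, the metabolic enzymes Acsl1 and Hpd, and the insulin receptor Insr. Matrix genes lay higher in value, 18 of 31 without overlap between the groups, but none was called. limma with Benjamini-Hochberg adjustment called 40 genes (0.273% of those tested), 23 higher (0.157%) and 17 lower (0.116%), and 2028 genes had an unadjusted p under 0.05. In 39 of the 40 the 4 folic acid libraries did not overlap the 4 vehicle libraries, the exception being Cyp2j13. With the Y share as a term limma called 9 genes (0.0614%), 3 higher (0.0205%) and 6 lower (0.041%). Of the 9, 6 were among the 40, and all 40 kept their direction. The 6 were Fcgr1, Cenpf and Pzp, which rose, and Slc10a2, Alas2 and Hba-a2, which fell. The number called depended on single libraries. It was 277 without folic acid 2 and 167 without folic acid 3, and all 40 genes were among these. It was 6 without folic acid 1, 4 without folic acid 4, and 6, 3, 4 and 3 without vehicle 1, 2, 3 and 4. Libraries of the other genotype, which shape only the spread when no sex term is fitted, moved it too. It was 364 without WT folic acid 1, in which 23% of reads fell on the single gene Gm42418 (4.85 to 8.15% in the others). It was 18 to 63 without single WT vehicle libraries, and 208 with the 8 G3 libraries alone. Fcgr1, Pzp and Slc10a2 were called in each of the 8 fits that left out a G3 library. Over all tested genes the median log2 fold change was -0.0119, and 3.98% had all 4 folic acid libraries above all 4 vehicle libraries, with 3.77% below. The counts of list members without overlap that follow are read against these shares. Over all tested genes edgeR called 50 (0.341%) and DESeq2 387 (2.64%), and their list counts are read against these. List counts at an unadjusted p under 0.05 are read against 2028 of all 14651 tested genes.

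**Figure D1:**
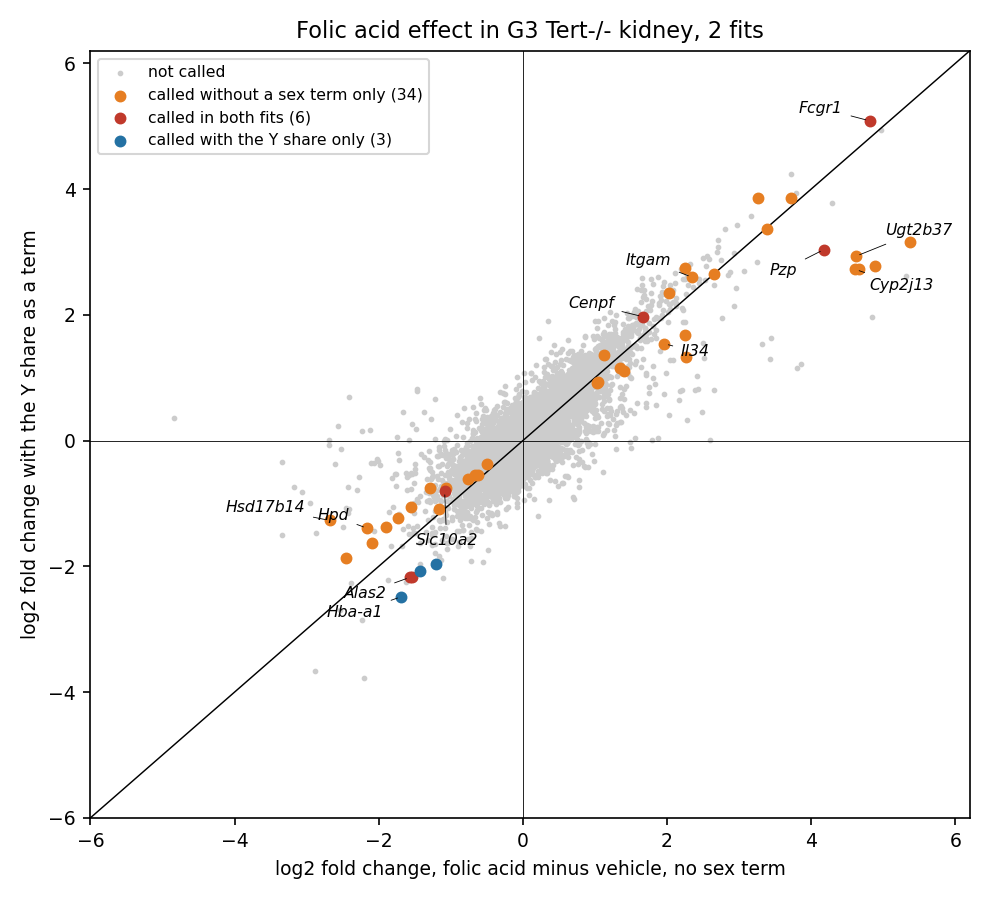
Log2 fold change of folic acid over vehicle in G3 kidney for each tested gene, fitted with no sex term (x axis) and with a term for the Y share (y axis), each on log2(normalised count + 1). Grey points were not called, coloured points were called in 1 or both fits, and the diagonal marks equal values. The male kidney genes Ugt2b37, Cyp2j13 and Pzp lie below the diagonal, Fcgr1 and Cenpf lie slightly above it, and Alas2 and Hba-a1 are lower with the Y share in the fit.

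Macrophage genes lay higher after folic acid across the list. All 22 tested macrophage genes (of 23, Cd163 being under the filter) had a positive log2 fold change, with a median of 1.73 and of 1.91 with the Y share, and the median was the same with Fcgr1 at its lower bound. In 11 of 22 the groups did not overlap (50%, against 3.98% of all genes), and 2 were called, Fcgr1 and Itgam. edgeR called 2 as well (against 0.341% of all genes) and DESeq2 17 of the 22 (against 2.64% of all genes). The mean log2 value of the list lay above the vehicle mean by 2.36, 2.18, 0.76 and 2.20 in folic acid 1 to 4, so folic acid 3 was the lowest and folic acid 2 was close to 1 and 4. Without folic acid 3 the groups did not overlap in 22 of 22 (8.1% of all genes), without vehicle 1 in 16 of 22 (6.32%), and without folic acid 4, which held both kinds of sex-linked RNA, in 11 of 22 (5.08%). In whole kidney, more cells of a type and more RNA per cell cannot be told apart.

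Fcgr1 encodes the high-affinity receptor for IgG, carried by monocytes and macrophages (chromosome 3, 96282909 to 96293969, GRCm38). Its normalised count was 22.7, 36.6, 19 and 34 in folic acid 1 to 4 and 0 in all 4 vehicle libraries. Every folic acid library was thus above every vehicle library, and Fcgr1 rose at least 9.18-fold, each vehicle library being set to a floor of 3 counts (limma adjusted p = 0.000604; 0.00505 under the Y share). Fcgr1 passed the filter only through folic acid libraries, since every vehicle library of both genotypes held under 10 normalised counts. The same held for Itgam, Havcr1, Mmp7 and Arhgap36, so these genes entered the test by being high after folic acid. Their absence of overlap was thus favoured by the filter. The adjusted p of Fcgr1 ran from 0.000597 to 0.00818 when single G3 libraries were left out. The promoter window of Fcgr1, 250 bases before to 50 after the annotated start, is shown because the gene was called in both fits and had no read in G3 vehicle. It holds the letters GAGGAA once, on the opposite strand, printed here as TTCCTC in capitals. GAGGAA is the core bound by PU.1, a transcription factor of the myeloid lineage. On either strand it occurs in 14 of the 18 promoter windows found for 16 of the 22 macrophage genes (77.8%) and in 28.3% of all 32851 mouse windows of this length. The sequence is from RefSeq, GRCm38.p6, chr3:96293920-96294219, minus strand.
Fcgr1: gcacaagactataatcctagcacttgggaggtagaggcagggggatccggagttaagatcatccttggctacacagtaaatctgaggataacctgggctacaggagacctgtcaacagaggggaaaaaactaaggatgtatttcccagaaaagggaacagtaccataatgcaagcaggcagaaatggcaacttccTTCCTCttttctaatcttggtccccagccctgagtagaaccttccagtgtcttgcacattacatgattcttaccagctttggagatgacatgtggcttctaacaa

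Itgam, the CD11b chain of the complement receptor on myeloid cells, was 30.9, 28.2, 15 and 39.4 after folic acid and 4.07, 5.86, 3.25 and 5.01 after vehicle. It rose 5.10-fold (log2 2.35, SE 0.46, limma adjusted p = 0.0417), and under the Y share its log2 fold change was 2.60 with an adjusted p of 0.236, so the call was lost while the value was not smaller. C1qb, a chain of the complement trigger C1q that macrophages make, was 450.3, 335, 138 and 474 after folic acid against 84.4, 39.1, 81.1 and 69.2, without overlap. Its log2 fold change of 2.25 (SE 0.52) missed the threshold (limma adjusted p = 0.0695). Lyz2, lysozyme of myeloid cells, was 882, 773, 159 and 722 against 102, 83, 53 and 50.1, and folic acid 3 was again far below the other 3. Its log2 fold change was 2.92 (limma adjusted p = 0.0737). Adgre1, which encodes the macrophage marker F4/80, had overlapping groups: 39.9, 50.7, 7.99 and 28.6 against 15.3, 9.77, 7.57 and 6.01 (log2 1.44, adjusted p = 0.494 in limma).

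**Figure D2:**
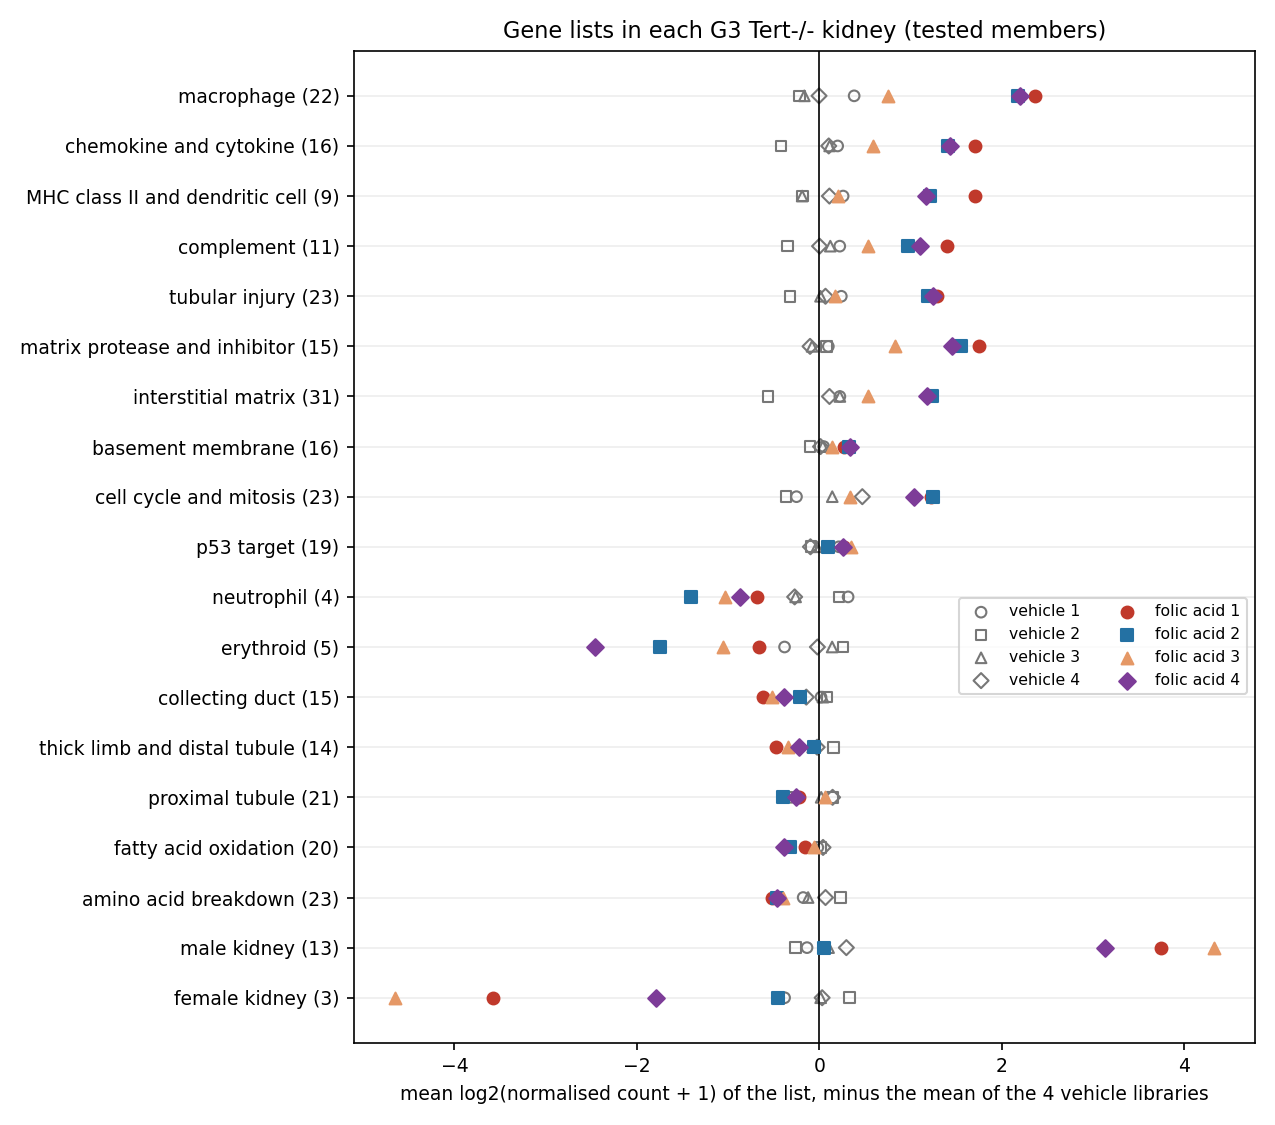
Mean log2(normalised count + 1) over the tested members of each list in each of the 8 G3 kidneys, less the mean of the 4 vehicle kidneys (x axis), with 1 row per list and the number of tested members in parentheses. Filled symbols are folic acid 1 to 4 and open symbols vehicle 1 to 4. Folic acid 1, 2 and 4 lie together at 2.18 to 2.36 for macrophage genes with folic acid 3 at 0.76, whereas for male kidney genes folic acid 2 lies at 0.05 and the others at 3.13 to 4.33.

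The growth factor that maintains macrophages through the receptor Csf1r also rose. Il34 was 389, 195, 303 and 321 in folic acid 1 to 4 and 67.1, 61.5, 73.6 and 101 in vehicle 1 to 4. The groups did not overlap, and the rise was 3.90-fold (log2 1.96, SE 0.33, limma adjusted p = 0.0252). It was not called under the Y share (log2 1.54, adjusted p = 0.285), and folic acid 2 was the lowest of the folic acid libraries. In WT, Il34 was 269, 180, 195 and 304 after vehicle, in the range of the G3 folic acid libraries or close below it. It was 296, 98.9 and 77.2 after folic acid in WT. The part of sex-linked RNA in the Il34 values was not tested. Csf1, the other ligand of that receptor, was 50.8, 61.1, 32 and 52.8 against 36.6, 34.2, 16.2 and 36.1, with overlap (log2 0.69, limma adjusted p = 0.344). The receptor gene Csf1r had a log2 fold change of 0.66 (limma adjusted p = 0.0863).

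Complement, antigen presentation and chemokine genes had positive medians, with C4b the single call. Complement had 5 of 11 tested genes without overlap (45.5%) and a median log2 fold change of 1.11. C4b, a component of the classical and lectin pathways, was called: 74.4, 17.9, 31 and 33.1 against 12.2, 2.93, 8.66 and 5.01, a rise of 4.76-fold (limma adjusted p = 0.047; log2 1.67, adjusted p = 0.321 under the Y share). Folic acid 2, at the low end, still exceeded the highest vehicle library. MHC class II and dendritic cell genes had 3 of 9 without overlap (33.3%, median 1.18). H2-Eb1, a class II beta chain, was 2474, 1929.7, 568 and 1359.8 against 529.8, 438, 477 and 489, so folic acid 3 stood just above vehicle (log2 1.52, limma adjusted p = 0.148). Chemokines and cytokines had 5 of 16 tested of 25 listed without overlap (31.2%, median 1.24). Ccr2, the receptor of inflammatory monocytes, was 217, 136, 46 and 119.9 against 35.6, 21.5, 21.6 and 42.1 (log2 1.93, limma adjusted p = 0.15). Cxcl16, a membrane-bound chemokine, was 465, 341, 257 and 449 against 208, 191, 184 and 219 (log2 0.87, limma adjusted p = 0.0744). Ccl2, Ccl4, Tnf and the neutrophil attractants Cxcl1 and Cxcl2 were under the filter.

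Interferon genes had 1 of 21 without overlap (4.76%, near the 3.98% of all genes), and 0 called by limma (7 at an unadjusted p under 0.05), edgeR or DESeq2. Of the 21, 18 had a positive log2 fold change, with a median of 0.36, and 0.67 with the Y share. Without folic acid 3, 6 lay above vehicle without overlap (8.1% of all genes), and without vehicle 1, 7 did (6.32%). Without other single G3 libraries 1 or 2 did. Isg15 was 58.1, 66.7, 19.98 and 56.4 against 23.4, 20.5, 30.3 and 22, with folic acid 3 inside the vehicle range. Lymphocyte genes were mostly too low to test. Of 14 T and NK cell genes 6 were tested and 0 lacked overlap, and of 8 B and plasma cell genes 4 were tested and 1, Ighm, lacked overlap. Igkc, the kappa light chain, was 1996, 2439, 37 and 552 against 713, 173, 143 and 200.4, a wide spread within both groups.

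Of 9 neutrophil genes 4 were tested, 2 lay below vehicle without overlap, and 0 were called by limma (3 at an unadjusted p under 0.05) or edgeR and 1 by DESeq2. S100a9, a calcium-binding protein of neutrophils, was 31.8, 15, 16 and 14.3 against 49.8, 50.8, 41.1 and 40.1, with every folic acid library below every vehicle library (log2 -1.26, SE 0.30, limma adjusted p = 0.0734). Its partner S100a8 was 44.5, 9.39, 19 and 33.1 against 45.8, 70.3, 45.4 and 37.1, and folic acid 1 lay within the vehicle range. Summed over the listed neutrophil genes, the folic acid libraries held 39.5 to 95.3 normalised counts and the vehicle libraries 103 to 149.

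Genes of injured tubule cells were higher in folic acid 1, 2 and 4 and near vehicle in folic acid 3. The tubular injury list had 8 of 23 tested genes without overlap (34.8%), 1 called and a median log2 fold change of 0.44, or 0.84 with the Y share. Its mean log2 value lay 1.29, 1.19, 0.18 and 1.25 above vehicle in folic acid 1 to 4. Without folic acid 3 the groups did not overlap in 13 of 23 (8.1% of all genes). Clu, the secreted chaperone clusterin, was 5274, 4038, 2697 and 5534 against 1838, 2324, 1554 and 2096. The groups did not overlap, and it rose 2.19-fold (log2 1.13, SE 0.22, limma adjusted p = 0.041; log2 1.36, adjusted p = 0.128 under the Y share). Havcr1, the kidney injury molecule KIM-1 of proximal tubules, was 80.8, 58.2, 22 and 53.7 after folic acid and 0, 0, 3.25 and 9.02 after vehicle. All folic acid libraries were above all vehicle libraries, but the log2 fold change of 4.28 (SE 0.89) did not pass (limma adjusted p = 0.0601).

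Vcam1, an adhesion molecule of vessels that injured tubule cells also make, was 380.4, 264, 128 and 303 against 96.6, 68.4, 47.6 and 55.1 (log2 1.94, limma adjusted p = 0.0664). Lcn2, which encodes the iron-carrier binding protein NGAL, was 185, 147, 34 and 226 against 16.3, 3.91, 18.4 and 26.1 (log2 3.07, limma adjusted p = 0.139). In both genes folic acid 3 was the lowest folic acid library, yet above vehicle. Spp1, the secreted phosphoprotein osteopontin, was 2403, 2400.4, 982 and 2366 against 774, 1132, 1154 and 1306, and here folic acid 3 fell within the vehicle range while the other 3 lay close together. Keratins were mixed: Krt8 had a log2 fold change of 0.26, Krt18 of -0.42, and neither passed (limma adjusted p = 0.657 and 0.761).

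**Figure D3:**
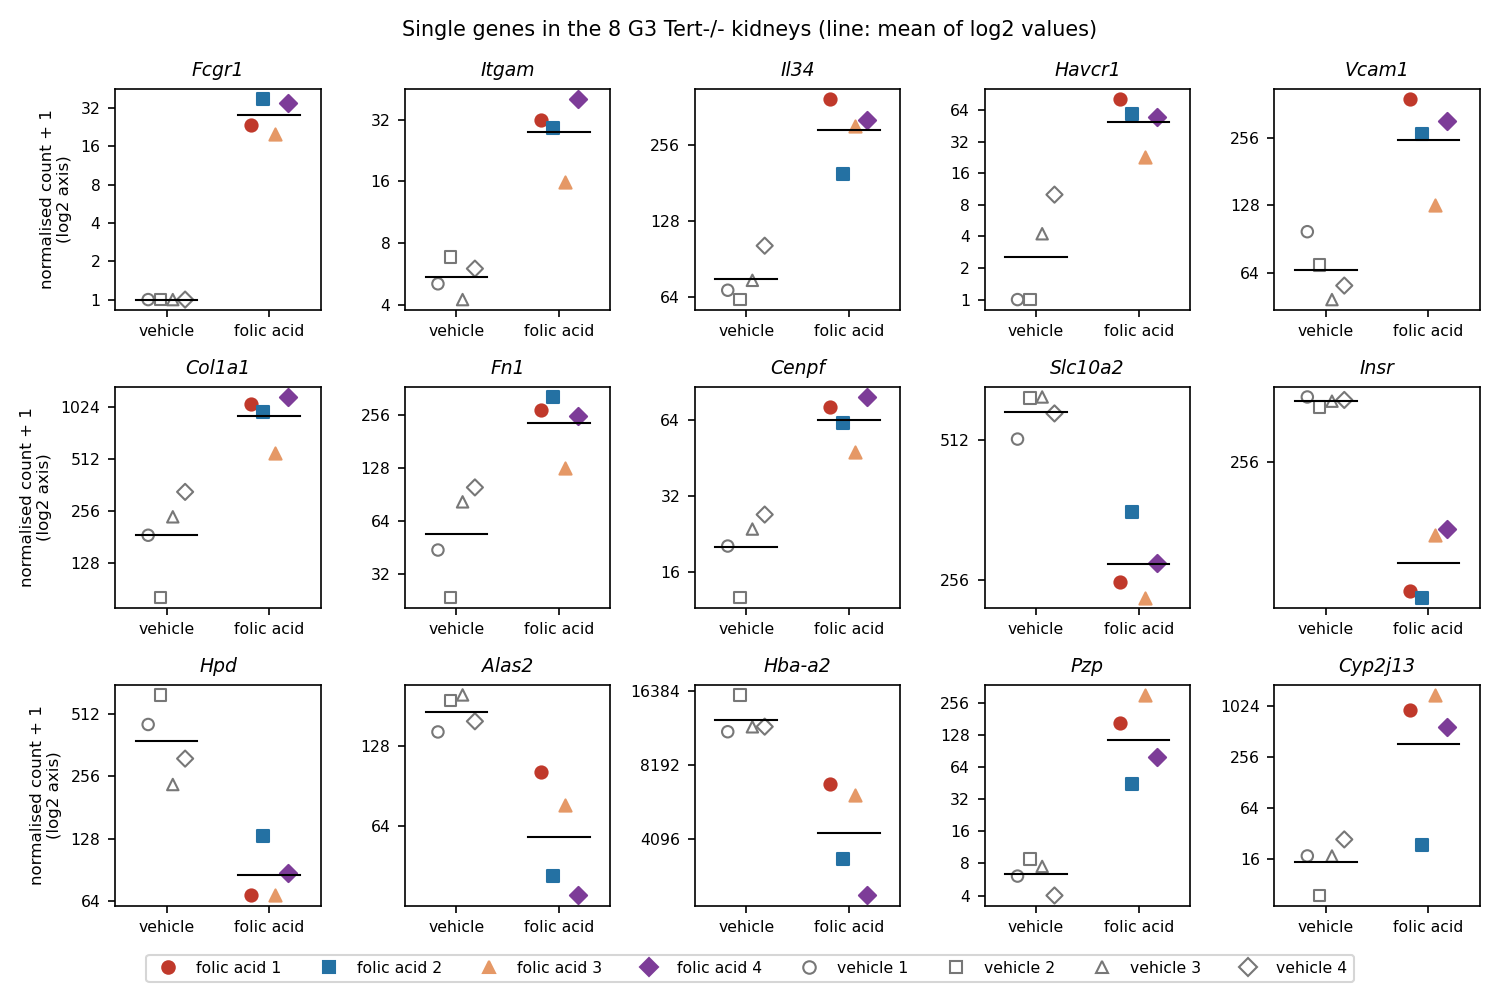
Normalised count + 1 on a log2 axis in the 4 vehicle (open symbols) and 4 folic acid (filled symbols) G3 kidneys for 15 genes, with the mean of the log2 values as a line. The symbols mark the same library in every panel. Fcgr1 is 0 in all vehicle kidneys, folic acid 3 is the lowest folic acid kidney in Itgam, Havcr1, Vcam1, Col1a1, Fn1 and Cenpf, and folic acid 2 is the lowest in Il34, Pzp and Cyp2j13.

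Interstitial matrix genes were higher in value across most of the list, with 0 called by limma, 0 by edgeR and 9 by DESeq2, and 20 at an unadjusted p under 0.05 in limma. Of 31 tested matrix genes 18 had all folic acid libraries above all vehicle libraries (58.1%, against 3.98% of all genes) and 0 below. The median log2 fold change was 1.12, and 1.30 with the Y share. List means lay 1.19, 1.24, 0.53 and 1.19 above vehicle in folic acid 1 to 4, so folic acid 2, with little Y-linked RNA, was the highest. Vehicle 2 was the lowest vehicle library, at -0.56. Summed over the list, folic acid libraries held 8459 to 13981 normalised counts and vehicle libraries 3291 to 5783.

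Col1a1, the alpha 1 chain of type I collagen, was 1075, 968, 556 and 1175 after folic acid and 185, 80.1, 237 and 331 after vehicle. The lowest folic acid library exceeded the highest vehicle library, at a log2 fold change of 2.29 (SE 0.54, limma adjusted p = 0.0734). Col3a1, type III collagen, was 851, 724, 334 and 726 against 152, 70.3, 164 and 178 (log2 2.22, limma adjusted p = 0.0912). Fn1, fibronectin, was 273, 323, 127 and 251 against 42.7, 22.5, 81.1 and 98.2 (log2 2.11, limma adjusted p = 0.0811). In each of the 3 folic acid 3 was the lowest folic acid library and vehicle 2 the lowest vehicle library. Bgn, the proteoglycan biglycan, had the smallest p of the list: 1216, 1209, 1035 and 1648 against 655, 309.7, 625 and 583 (log2 1.27, SE 0.28, limma adjusted p = 0.0675). Mgp, a matrix inhibitor of calcification, was 3342, 2654, 1459.5 and 2465 against 505, 456, 814 and 837 (log2 1.92, limma adjusted p = 0.0737). Not every matrix gene separated. Ctgf, a secreted matricellular protein, was 66.3, 137, 51.9 and 34.9 against 43.7, 184, 106 and 137 (log2 -0.70), and Postn, periostin, was 11.8, 25.4, 9.99 and 28.6 against 35.6, 4.88, 9.74 and 7.02 (log2 0.64).

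**Figure D4:**
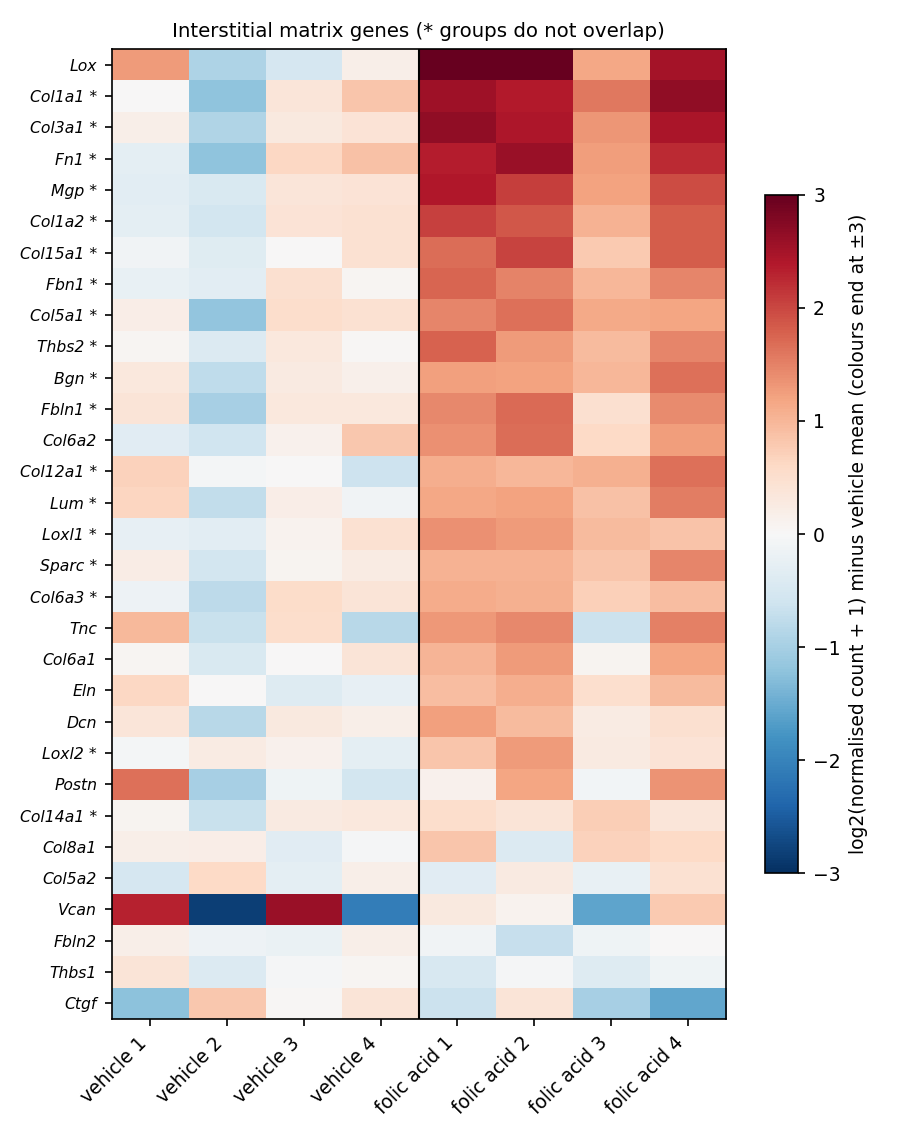
Log2(normalised count + 1) of the 31 interstitial matrix genes (rows, ordered by log2 fold change) in the 8 G3 kidneys (columns), each less the mean of its 4 vehicle values. Colours end at 3 above and below. An asterisk marks the 18 genes whose groups do not overlap, and folic acid 3 is paler than folic acid 1, 2 and 4 in most of them.

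Matrix proteases and inhibitors had 8 of 15 tested genes without overlap (53.3%) and a median of 1.53, with 0 called by limma (9 at an unadjusted p under 0.05), 0 by edgeR and 2 by DESeq2. Mmp7, a metalloproteinase made by injured tubule epithelium, was 75.3, 47, 12 and 81.4 after folic acid and 3.05, 0, 0 and 0 after vehicle (limma adjusted p = 0.0734). With so few vehicle reads no fold is given. Timp1, an inhibitor of these proteases, was 60.8, 26.3, 26 and 68.9 against 5.08, 3.91, 0 and 12 (log2 3.25, limma adjusted p = 0.106). Mmp14, a membrane-bound collagenase, was 229.7, 261, 116 and 228 against 85.4, 67.4, 58.4 and 66.1 (log2 1.53, limma adjusted p = 0.0756). Plau, the urokinase of tubule cells, was 446, 495, 248 and 251 against 315, 511, 542 and 537, with folic acid 3 and 4 below vehicle and 1 and 2 within its range.

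Of 16 basement membrane genes 5 lay above vehicle without overlap (31.2%), with 0 called by limma (5 at an unadjusted p under 0.05), 0 by edgeR and 1 by DESeq2. Col4a1 was 1515, 1314, 1358 and 1496 against 846, 622, 901 and 1025, and Col4a2 901, 779.8, 754 and 837 against 405, 363, 538 and 573; these chains are shared by basement membranes throughout the kidney. Their log2 fold changes were 0.76 and 0.82 (limma adjusted p = 0.119 and 0.095). The chains of the mature glomerular membrane, Col4a3, Col4a4 and Col4a5, had log2 fold changes of -0.23, -0.18 and -0.31, none of which passed.

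Fibroblast, pericyte and smooth muscle genes lay on both sides of vehicle. Of 13 tested, 3 lay above vehicle without overlap (23.1%), and 2 below (15.4%), with 0 called by limma (8 at an unadjusted p under 0.05), 0 by edgeR and 2 by DESeq2. Des, the intermediate filament desmin, was 50.8, 59.2, 54.9 and 49.2 against 23.4, 25.4, 26 and 24.1 (log2 1.08, SE 0.23, limma adjusted p = 0.061). Dpt, dermatopontin of fibroblasts, was 96.2, 138, 55.9 and 132 against 44.7, 8.79, 18.4 and 24.1 (log2 2.22, limma adjusted p = 0.0882). Acta2, the smooth muscle actin of myofibroblasts and vessel walls, lay on the other side: 197, 256, 182 and 199.5 after folic acid and 377, 283, 272 and 281 after vehicle, all folic acid libraries lower (log2 -0.54, limma adjusted p = 0.167). Rgs5, a pericyte gene, was 278, 268, 259 and 301 against 396, 361, 352 and 386 (log2 -0.43, limma adjusted p = 0.0784).

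The study's title concerns epithelial to mesenchymal transition, and its genes were examined for that reason. Of 13 tested genes 5 lay above vehicle without overlap (38.5%), and 1 below (7.69%, Acta2), with a median of 0.40 and 0 called by limma (5 at an unadjusted p under 0.05), 0 by edgeR and 2 by DESeq2. Zeb2, a transcription factor of that programme also made by macrophages, was 761, 686, 671 and 878 against 471, 308, 427 and 466 (log2 0.85, SE 0.20, limma adjusted p = 0.0737). The macrophage genes lay higher in the same libraries, and their part in the Zeb2 value was not tested. Vim, vimentin, was 421, 366, 221 and 387 against 365, 228, 213 and 243, overlapping (log2 0.40, limma adjusted p = 0.527). The epithelial cadherin Cdh1 was 1128, 1220.4, 1168 and 1068 against 1218, 936, 1461 and 1256 (log2 -0.07, limma adjusted p = 0.886). Snai1 was under the filter, while Snai2 and Twist1, transcription factors of the same programme, had log2 fold changes of 0.62 and -0.54 (limma adjusted p = 0.58 and 0.719). In the TGF-beta pathway 2 of 16 genes lay above vehicle without overlap (12.5%), the receptors Tgfbr1 and Tgfbr2. Tgfbr2 was 133, 127, 113 and 167 against 72.2, 71.3, 63.8 and 72.2 (log2 0.93, limma adjusted p = 0.0918). The ligand Tgfb1 was 52.7, 52.6, 29.97 and 55.5 against 113, 86, 42.2 and 26.1, so every folic acid library lay within the vehicle range (log2 -0.30, limma adjusted p = 0.775).

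**Figure D5:**
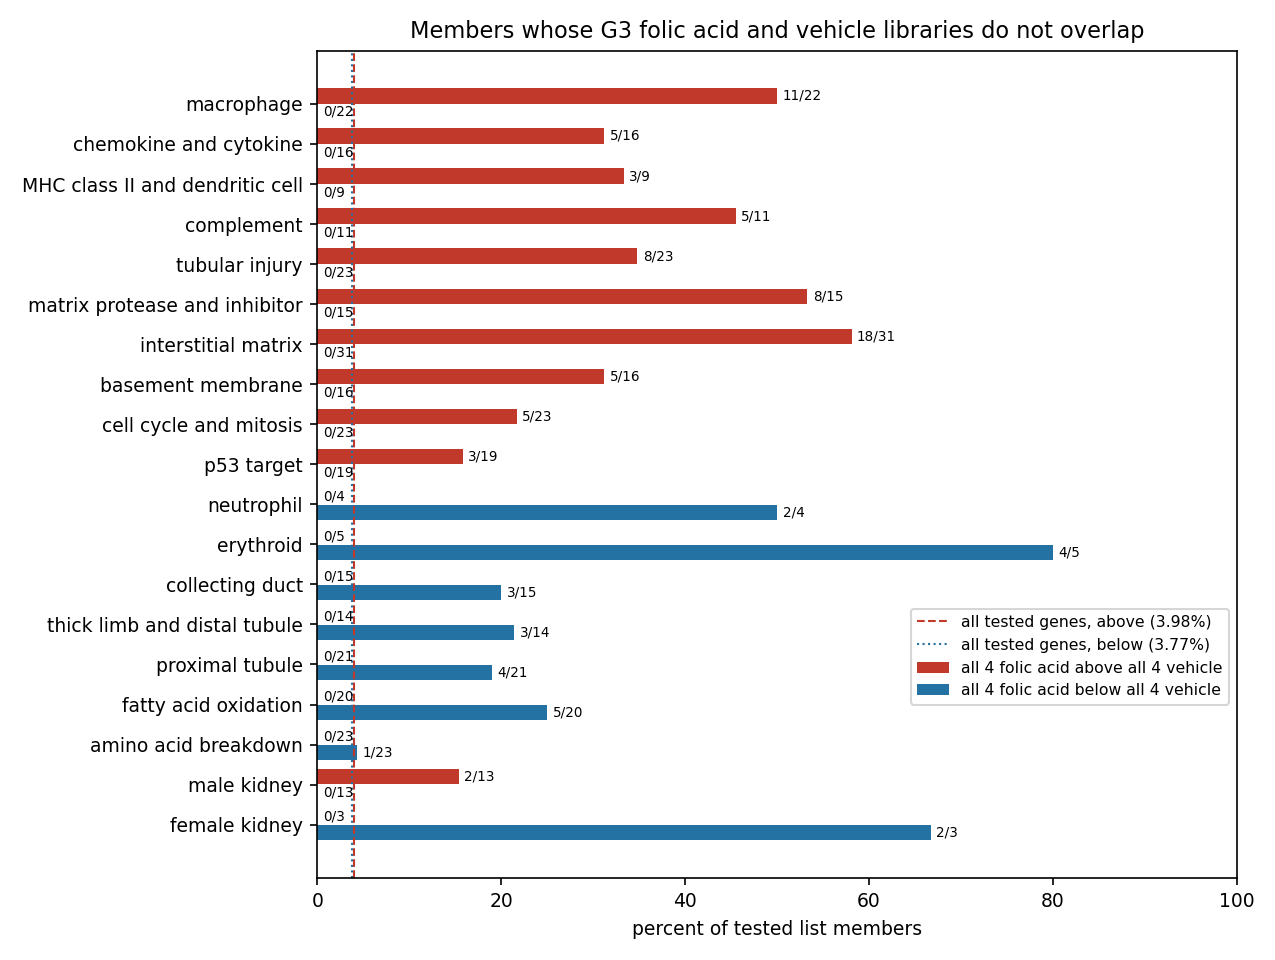
Percent of tested members of each list for which all 4 folic acid kidneys lie above all 4 vehicle kidneys (red) or below them (blue), with the counts beside the bars. Dashed and dotted lines give the same percent over all tested genes, 3.98 above and 3.77 below. Interstitial matrix reaches 58.1 above and erythroid genes 80 below, while amino acid breakdown, at 4.35 below, lies near the line.

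Among genes of dividing cells Cenpf was called in both fits. Of 30 cell cycle and mitosis genes 23 were tested, 5 lacked overlap (21.7%), 1 was called, and the median log2 fold change was 1.18 (1.06 with the Y share). Without folic acid 3 the groups did not overlap in 16 of 23 (8.1% of all genes), and without vehicle 4 in 10 (5.69% of all genes). Cenpf, a kinetochore protein made late in the cell cycle (chromosome 1, 189640606 to 189688086), was 70.8, 61.1, 47 and 77.8 in folic acid 1 to 4 and 19.3, 11.7, 22.7 and 26.1 in vehicle 1 to 4. The groups did not overlap, and the rise was 3.17-fold (log2 1.67, SE 0.28, limma adjusted p = 0.0252; log2 1.97, adjusted p = 0.0363 under the Y share). Without single G3 libraries its adjusted p ran from 0.0108 to 0.11. Top2a, the topoisomerase of dividing cells, was 147, 156, 69.9 and 121 against 50.8, 17.6, 54.1 and 75.2, folic acid 3 lying below vehicle 4 (log2 1.41, limma adjusted p = 0.0744). Mki67, which encodes the proliferation marker Ki-67, was 89, 129.7, 33 and 95.7 against 27.5, 20.5, 31.4 and 54.1 (log2 1.29, limma adjusted p = 0.151). Among genes of DNA replication, Mcm2, a subunit of the replicative helicase, had a log2 fold change of 0.36 and Pcna, the sliding clamp of the polymerase, of 0.12 (limma adjusted p = 0.641 and 0.865).

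The Cenpf promoter window is shown because it carries both kinds of letters common to genes of late cell cycle, in capitals: CCAAT at 2 places and TTTGAA, the cell cycle homology region, at 1. Searched on both strands, TTTGAA occurs in 12 of 23 windows of the cell cycle list (52.2%) and in 17.9% of all windows, and CCAAT in 19 of 23 (82.6%) and 37.4%. A match describes the letters only. The window is chr1:189688037-189688336, minus strand, GRCm38.p6, from RefSeq.
Cenpf: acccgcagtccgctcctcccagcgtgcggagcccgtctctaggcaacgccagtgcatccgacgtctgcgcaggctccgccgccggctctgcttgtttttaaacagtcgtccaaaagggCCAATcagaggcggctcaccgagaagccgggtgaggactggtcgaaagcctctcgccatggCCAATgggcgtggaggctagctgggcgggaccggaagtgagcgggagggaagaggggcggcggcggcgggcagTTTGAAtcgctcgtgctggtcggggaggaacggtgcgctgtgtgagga

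Telomere loss is known to activate p53, so its targets were examined. Of 19 p53 targets 3 lay above vehicle without overlap (15.8%), the median was 0.11, and 0 were called by limma (4 at an unadjusted p under 0.05) or edgeR and 1 by DESeq2. Gdf15, a stress cytokine induced by p53, was 153, 86.4, 156 and 127 against 85.4, 57.6, 79 and 56.1, folic acid 2 being just above vehicle 1 (log2 0.89, limma adjusted p = 0.0734; log2 0.49, adjusted p = 0.523 under the Y share). Cdkn1a, the cell cycle inhibitor p21, was 195, 209, 204 and 249 in folic acid libraries, between the 2 high and the 2 low vehicle libraries at 411, 370.3, 129.8 and 142 (log2 -0.11, limma adjusted p = 0.918). Among 14 tested telomere and DNA damage genes 0 lacked overlap in either direction.

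The lists of tubule transport and metabolism genes had medians slightly below 0, and single genes in them fell. Slc10a2, the sodium-dependent bile acid transporter of the proximal tubule brush border (chromosome 8, 5083219 to 5105351), was 252, 357, 234 and 277 in folic acid 1 to 4 and 514, 630.1, 633 and 583 in vehicle 1 to 4. Its groups lay apart, and it fell 2.12-fold (log2 -1.09, SE 0.14, limma adjusted p = 0.00215; log2 -0.80, adjusted p = 0.0268 under the Y share). Without single G3 libraries its adjusted p was 5.86e-05 to 0.0181. It was the 1 called gene among 21 proximal tubule genes, of which 4 lay below vehicle without overlap (19%, against 3.77% of all genes) and whose median was -0.12. Lrp2, the endocytic receptor megalin, was 4109, 5498, 5815 and 4626 against 8159, 9417, 8357 and 9051 (log2 -0.81, SE 0.20, limma adjusted p = 0.0737; log2 -0.51, adjusted p = 0.505 under the Y share). The list was not uniform: the organic anion transporter Slc22a6 was 2262, 1076, 4008 and 2246 against 956, 1594, 1027 and 1293, highest in the folic acid libraries with Y-linked RNA (log2 0.86, and 0.15 with the Y share).

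Further along the nephron, 3 of 14 thick limb and distal tubule genes (21.4%) and 3 of 15 collecting duct genes (20%) lay below vehicle without overlap. Aqp4, the water channel of the basolateral membrane of collecting duct cells, was 34.5, 88.3, 49 and 84.1 against 279, 147, 266 and 145. It fell 3.31-fold (log2 -1.73, SE 0.32, limma adjusted p = 0.0377; log2 -1.23, adjusted p = 0.299 under the Y share). Aqp2, the apical channel under vasopressin control, overlapped, at 875, 1562, 1018 and 1396 against 2062, 1179, 3256 and 1515 (log2 -0.66, limma adjusted p = 0.46). Slc26a4, the anion exchanger pendrin of intercalated cells, was 133, 139, 131 and 111 against 192, 314, 206 and 233 (log2 -0.85, limma adjusted p = 0.389). Summed collecting duct genes came to 2748 to 3934 after folic acid and 4026 to 5876 after vehicle, without overlap. With the Y share the median of the collecting duct list moved from -0.30 to -0.10, and that of the thick limb and distal tubule list from -0.30 to -0.06. Outside the tubule, 2 of 15 endothelial genes (13.3%) and 2 of 10 podocyte genes (20%) lay below vehicle without overlap. The podocyte median moved from -0.23 to 0.0023 with the Y share.

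Of 20 fatty acid oxidation genes 5 lay below vehicle without overlap (25%), with 1 called. Acsl1, which activates long-chain fatty acids, was 855, 1344, 980.0 and 947 against 2912, 2765, 2155 and 2156. It fell 2.43-fold (log2 -1.28, SE 0.25, limma adjusted p = 0.041; log2 -0.76, adjusted p = 0.308 under the Y share). Hadhb, a subunit of the mitochondrial trifunctional enzyme, was 336, 333, 302 and 269 against 455, 433, 393 and 418 (log2 -0.46, limma adjusted p = 0.0952). Cpt1a, which governs entry of fatty acids into mitochondria, went the other way in value, 1254, 1004, 1544 and 1109 against 725, 719, 1079 and 1181, with overlap (log2 0.42). Oxidative phosphorylation genes showed 1 of 23 without overlap (4.35%), close to the background, and a median of -0.03.

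Amino acid breakdown also had 1 of 23 without overlap, Hpd, which fell. List means relative to the vehicle mean were -0.52, -0.47, -0.40 and -0.47 in folic acid 1 to 4, and -0.18 to 0.23 in vehicle. In limma 7 of 23 were lower at an unadjusted p under 0.05. Without single G3 libraries the members below vehicle without overlap ranged from 1, as without vehicle 2, to 6 without vehicle 1 (5.24% and 6.67% of all genes). Hpd, a dioxygenase of tyrosine breakdown, was 67.2, 131, 66.9 and 85.9 against 455, 632, 233 and 311. It fell 4.46-fold (log2 -2.16, SE 0.37, adjusted p = 0.0252 in limma), and under the Y share the log2 fold change was -1.40 (adjusted p = 0.285). Insr, the insulin receptor, was 181, 178, 209.8 and 213 against 303, 295, 299.7 and 301, with very little spread among vehicle libraries. It fell 1.54-fold (log2 -0.62, SE 0.11, limma adjusted p = 0.0269; log2 -0.54, adjusted p = 0.285 under the Y share). The forkhead factors Foxo1 and Foxo3, which insulin signalling restrains, lay below vehicle without overlap (log2 -0.35 and -0.43), and neither was called.

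Among genes of folate handling itself, 17 of 17 were tested, 1 lay below vehicle without overlap (5.88%), and 0 were called by limma (4 at an unadjusted p under 0.05) or edgeR and 2 by DESeq2. Folr1, the folate receptor of the proximal tubule, was 1321, 589, 1023 and 1099 against 480.0, 555, 1073 and 1189.6, and both groups spread over the same range (log2 0.34). Shmt1, a cytosolic enzyme that charges folate with one-carbon units, was 172, 231, 127 and 171 against 225, 308, 266 and 282 (log2 -0.64, limma adjusted p = 0.0909).

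Alas2 and Hba-a2 of red cell precursors fell, and under the Y share all 5 tested erythroid genes fell. Of 5 tested erythroid genes 4 lay below vehicle without overlap (80%, against 3.77%), and 2 were called. The median log2 fold change was -1.53, or -2.17 with the Y share. Alas2, the erythroid enzyme that starts haem synthesis (chromosome X, 150547375 to 150570638), was 101, 40.4, 75.9 and 34 in folic acid 1 to 4 and 143, 189, 198 and 157 in vehicle 1 to 4. It fell 2.95-fold (log2 -1.56, SE 0.27, adjusted p = 0.0252 in limma, and -2.17 under the Y share, adjusted p = 0.0012). Hba-a2, an alpha globin gene, was 6839, 3397, 6201 and 2417 against 11199, 15807, 11729 and 11744 and fell 2.89-fold (limma adjusted p = 0.0377; log2 -2.17, adjusted p = 0.0012 under the Y share). Folic acid 2 and 4 were the lowest in both genes, and folic acid 1 and 3, the libraries with the most Y-linked RNA, were nearer to vehicle.

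Hba-a1, the other alpha globin gene, was 5579, 2941, 4363 and 1490.4 against 8062, 16081, 9736 and 9025 (limma adjusted p = 0.0682, and log2 -2.48 under the Y share, adjusted p = 0.00769). The beta globin genes Hbb-bt and Hbb-bs had log2 fold changes of -1.43 and -1.21 (limma adjusted p = 0.0682 and 0.118, with the Y share 0.0107 and 0.0268). Reads of the near-identical globin copies can be split between them, which makes each copy's own value uncertain. Kidneys were perfused with cold saline, and how much blood each retained is not stated. The Alas2 promoter window is shown for its AGATAA letters, a site of the GATA factors of red cell precursors, which occur once on the opposite strand and are printed as TTATCT in capitals. On either strand AGATAA occurs in 2 of the 5 erythroid windows (40%) and in 11.2% of all windows. The window is chrX:150547167-150547466, plus strand, GRCm38.p6, from RefSeq.
Alas2: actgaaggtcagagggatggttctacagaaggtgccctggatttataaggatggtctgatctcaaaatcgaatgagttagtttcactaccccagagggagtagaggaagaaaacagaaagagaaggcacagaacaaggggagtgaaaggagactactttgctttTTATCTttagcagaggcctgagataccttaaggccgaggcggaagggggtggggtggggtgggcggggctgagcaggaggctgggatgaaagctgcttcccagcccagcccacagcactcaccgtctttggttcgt

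Genes that male mouse kidneys are known to express more strongly ran with the Y-linked RNA. All 13 tested had a positive log2 fold change, with a median of 2.65 that was 0.81 with the Y share. List means lay 3.75, 0.05, 4.33 and 3.13 above vehicle in folic acid 1 to 4, and folic acid 2 lay within the vehicle range of -0.26 to 0.30. Cyp2j13, a cytochrome P450, was 905, 22.5, 1379 and 573 against 16.3, 4.88, 16.2 and 26.1, with folic acid 2 inside the vehicle range; limma called it without a sex term (adjusted p = 0.0377) and not with the Y share (0.299). Ugt2b37, a glucuronosyltransferase, was 1594, 51.7, 2338 and 1208 against 28.5, 17.6, 26 and 43.1 (limma adjusted p = 0.0252; log2 2.93, adjusted p = 0.285 under the Y share). The Y-linked genes Ddx3y, Kdm5d and Uty were themselves among the 40 calls. Genes higher in female kidney mirrored this pattern: Prlr, the prolactin receptor, was 189, 1492, 65.9 and 621 against 2068, 2664, 1907 and 1904 (log2 -2.68, and 0.01 with the Y share).

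Pzp, an alpha macroglobulin that binds proteases (chromosome 6, 128483567 to 128526720), belonged to the male kidney list but separated folic acid 2 as well. It was 163, 43.2, 301 and 77.8 in folic acid 1 to 4 and 5.08, 7.82, 6.49 and 3.01 in vehicle 1 to 4. The rise was 18.1-fold (log2 4.18, SE 0.46, limma adjusted p = 0.000604), and 3.04 on the log2 scale with the Y share (adjusted p = 0.00208). Folic acid 2, with a Y share of 0.0173, held 43.2 normalised counts against at most 7.82 in vehicle. In WT, Pzp was 364, 193, 414 and 444 after vehicle, where the Y share was 0.327 to 1. After folic acid in WT it was 4.54, 10.6 and 5.72, at a Y share of 0.0110 to 0.0340. Among libraries with little Y-linked RNA, folic acid 2 alone thus held Pzp well above the others. The adjusted p of Pzp in limma ran from 8.01e-06 to 0.0047 without single G3 libraries.

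Other genes named for their size of change were called without a sex term and not with the Y share. Chst11, a chondroitin sulfotransferase, rose 4.80-fold (139.8, 36.6, 173 and 85.9 against 27.5, 9.77, 19.5 and 23.1, limma adjusted p = 0.0252; log2 1.32, adjusted p = 0.285 under the Y share). Nkd2, an inhibitor of Wnt signalling, rose 4.09-fold (41.8, 56.4, 24 and 81.4 against 11.2, 7.82, 11.9 and 12, limma adjusted p = 0.0377; log2 2.34, adjusted p = 0.143 under the Y share). Hsd17b14, a steroid dehydrogenase, fell 6.41-fold (10.9, 53.6, 5.99 and 37.6 against 99.7, 120.2, 179.6 and 133, limma adjusted p = 0.0381; log2 -1.27, adjusted p = 0.285 under the Y share). In Chst11 and Hsd17b14 folic acid 2 was the folic acid library nearest to vehicle, and in Nkd2 it was folic acid 3. Loxl4, a lysyl oxidase of collagen crosslinking, fell 3.72-fold (8.17, 12.2, 5 and 8.95 against 32.5, 34.2, 36.8 and 30.1, limma adjusted p = 0.0377), opposite in direction to the values of Lox and Loxl1 (log2 2.44 and 1.12, limma adjusted p = 0.143 and 0.0784). Setd4, a SET domain methyltransferase, fell 2.93-fold (6.35, 13.2, 12 and 12.5 against 32.5, 44.9, 23.8 and 34.1, limma adjusted p = 0.0461).

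The remaining calls fell outside the naming rule and were named after their values were seen. Among those that rose were Apoh, the plasma protein beta-2-glycoprotein I (14.5, 34.8, 28 and 11.6 against 3.05, 0.977, 1.08 and 0, limma adjusted p = 0.0171), and Slc34a2, a sodium phosphate cotransporter (41.8, 33.8, 13 and 36.7 against 7.12, 4.88, 1.08 and 4.01, limma adjusted p = 0.0435). Arhgap36 had no read in vehicle and was 14.5, 11.3, 5.99 and 21.5 after folic acid, a rise of at least 4.35-fold when each vehicle library is set to 3 counts (limma adjusted p = 0.0417). The kinesin Kif1a, the phospholipase Plcb2, Olfm4, Mxra7, the metalloprotease Adamts15 and Gm4951 also rose (limma adjusted p of 0.0377 to 0.0437). Those that fell were the mitochondrial carrier Sfxn2, the sodium proton exchanger Slc9a8, Tob2, Zbtb44, Gm48114, Gm43158 and AC166995.1. Sfxn2 was 285, 279, 259.7 and 229.9 against 414, 454, 454 and 457 (log2 -0.76, SE 0.13, limma adjusted p = 0.0252). Slc9a8 was 350.4, 529, 549 and 471 against 738, 700.5, 752 and 771 (log2 -0.66, limma adjusted p = 0.0417). Both were separated between the groups and differed by less than 2-fold. None of these was called with the Y share, although the log2 fold change was no smaller for Kif1a (3.86 against 3.27) and Plcb2 (2.74 against 2.25) and close for Apoh (3.36 against 3.39) and Slc34a2 (2.65 against 2.66).

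The folic acid effect was tested against that in WT kidneys by the difference of the log2 fold changes. Without a sex term limma called 560 genes for this difference (3.82%), and 2 with the Y share (0.0137%), Alas2 and Pzp. Y-linked RNA ran in opposite directions in the 2 genotypes, with a Y share of 0.327 to 1 in WT vehicle and of 0.0110 to 0.0340 in WT folic acid, so without that term the difference between genotypes and sex-linked RNA cannot be told apart. Alas2 was 115, 131 and 124 after folic acid and 145, 93.8, 157 and 112 after vehicle in WT, with overlap. The G3 effect less the WT effect was -1.54 on the log2 scale (limma adjusted p = 0.037) and -3.19 with the Y share (adjusted p = 0.0426). Fcgr1 was 21.6, 4.80 and 3.81 after folic acid and 4.52, 3.79, 0.959 and 6.99 after vehicle in WT. Its difference of 3.89 on the log2(normalised count + 1) scale, which is no bound given the reads of 0, passed without a sex term (limma adjusted p = 0.0123). With the Y share it was 4.62, no smaller, with an adjusted p of 1. Slc10a2 was 958, 796 and 898 after folic acid and 501, 653, 488 and 525 after vehicle in WT, a difference of -1.80 (limma adjusted p = 0.000322; -1.02, adjusted p = 1 under the Y share). Hpd was 167, 364 and 357 after folic acid and 75.8, 254, 112 and 99.9 after vehicle in WT. Hsd17b14 was 81.7, 107 and 113 after folic acid and 14.7, 52.1, 26.9 and 16 after vehicle in WT. Of the 40 genes called in G3, 27 differed from WT with no sex term and 2 under the Y share. Without a sex term 13 of the 40 had the same sign in WT. In WT 12 of the 40 were called, 11 of them in the opposite direction, as Y-linked RNA also ran.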

How the data were processed

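Libraries were made from polyadenylated kidney RNA with the QuantSeq 3' FWD kit. This kit reads 1 fragment near each transcript's 3' end and keeps the strand, so values follow transcripts and not length. RNA quality is given for the series as a whole, with a mean of 6.3 and a range of 4.7 to 8.0. How it differed between libraries or groups is not stated. Per the file headers and the submitters' processing notes, the deposited table holds a signal per gene, counts divided by 1 size factor per library by the authors. The notes name FastQC 0.11.7, TopHat2 2.0.10, Bowtie 1.0.0, SAMtools 0.1.19, HTSeq 0.6.1, DESeq2 and the GRCm38 build, with no order or roles. Whole reads could be recovered from the table for 100% of values (tolerance 0.001), which gave 5014684 to 6609307 reads per library. Library totals limit low genes: a count of 0 allows up to 3 counts, and such floors cover counting error only.

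Groups came from the treatment labels. limma 3.58.1 (R 4.3.3) was fitted to log2(normalised count + 1) over all 15 libraries with 1 term per group, a mean-variance trend and Benjamini-Hochberg adjustment over the 14651 genes with at least 10 normalised counts in at least 3 libraries; genes with an adjusted p under 0.05 were called. Fold changes are on that scale and understate the change of low genes. On simulated counts with known changes the fit recovered 18% of genes changed 1.5-fold, 46% at 2-fold, 94% at 4-fold and 100% at 8-fold. Of its calls on those counts 3.01% were false. Whether these shares hold for the kidney libraries was not tested. edgeR 4.0.16 and DESeq2 1.42.0 were run on the recovered reads as alternatives, beside other sex terms, filters, pseudocounts, scalings, weights and sets of libraries. The labels do not say which libraries came from separate animals, so p-values measure the spread between these libraries. Gene coordinates are from GENCODE M21, in which 19509 symbols matched, and promoter windows from RefSeq GRCm38.p6.

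Members and gene lists were chosen with earlier results of these data known, so list counts are descriptions. Genes were named if called in both fits or in 1 of them with the largest changes (mean count of at least 20, no predicted genes), from a fixed panel, or as the 3 smallest p of a list; other list members given as examples were chosen after their values were seen. A list's score in a library is its mean log2 value less the vehicle mean.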

Additional observations from a re-analysis of the deposited data

Results flagged for a closer look

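In 40 named genes, each examined in the folic acid and the vehicle group of G3 kidneys (80 groups of 4 libraries), a single library lay far from the other 3 in 4 groups by Dixon's ratio of that gap to the group's range. Chance flags about 1 in 20 such groups, so these 4 are no more than chance gives. Hba-a2 was 15810 in vehicle 2, against 11200 to 11740 in the other vehicle libraries. Spp1 was 982 in folic acid 3, against 2366 to 2403 in the other folic acid libraries. Acta2 was 377.3 in vehicle 1, against 271.6 to 283.3, and Csf1 was 16.23 in vehicle 3, against 34.19 to 36.61.

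The folic acid effect in G3 kidneys differed from that in WT kidneys in 16 of these genes by limma's test of the difference (G3 minus WT, log2 scale, no sex term), and in 2 of them with the Y share as a term. Those 2 were Alas2, with a difference of -1.544 (adjusted p = 0.037, with the Y share -3.186, adjusted p = 0.0426), and Pzp, with 9.664 (adjusted p = 1.14e-06, with the Y share 6.603, adjusted p = 0.00221). Lower effects in G3 without a sex term were found for Slc10a2 (-1.796), Hsd17b14 (-4.685), Hpd (-3.353), Loxl4 (-2.223), Aqp4 (-2.712), Setd4 (-2.608), Acsl1 (-1.911) and Insr (-0.7989), with adjusted p of 0.000322 to 0.0259. Higher effects were found for Ugt2b37 (9.757), Cyp2j13 (10.11), Chst11 (5.282), C4b (2.835), Il34 (2.774) and Fcgr1 (3.887), with adjusted p of 0.000271 to 0.0262. With the Y share the adjusted p of these 14 genes was 1 and each difference kept its sign. Sex-linked RNA ran in opposite directions in the 2 genotypes and without that term cannot be told apart from these differences.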

How the results depend on the processing

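The 40 genes called in G3 became 12 with the labelled sex, 9 with the Y share, 7 in edgeR with the Y share, 11 without the 2 libraries that held both Xist and Y-linked RNA and 3 when the Y share was added there. They became 208 with the 8 G3 libraries only, 129 with the Y share and without WT folic acid 1, 697 with library weights, 4 with no mean-variance trend, 387 in DESeq2 (253 higher, 134 lower) and 0 with the title series as a term. With 1 library left out at a time they ranged from 3 to 364. Alternatives chosen after seeing the data gave 18 with the Y share and without folic acid 2, and 3 with vehicle 3 and 4 averaged. edgeR without a sex term called 50, and other filters, pseudocounts and scalings called 32 to 42. The difference from WT fell from 560 genes to 2 with the Y share. The 1135 genes whose G3 libraries do not overlap became 1378 to 2134 with 1 G3 library left out, as fewer libraries must separate. The cause of the other shifts was not tested. No called value changed sign, but values that were not called did: with the Y share Prlr went from -2.68 to 0.01 and the medians of the female kidney and telomere lists from -2.61 to 0.01 and from -0.12 to 0.02, and Cdkn1a ran from -0.39 to 0.17 with single libraries left out. Over the named genes, 4607 values under these alternatives kept their side of the threshold, 652 lost it and 257 gained it, and of the list medians 610 moved by less than the spread between libraries and 20 by more. No paired analysis was possible because replicate numbers follow accession order and pair no libraries. Depth limits genes under about 10 normalised counts.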

Other observations

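Several smaller groups held values not described above, with 0 genes called in them by limma or edgeR (DESeq2 called 2 immediate early genes, 1 of the PGC-1 and sirtuin list and 1 of the clock list). Among 11 tested immediate early genes 2 lay below vehicle without overlap (18.2%, against 3.77% of all genes). Nr4a1, an early response nuclear receptor, was 4.54, 2.82, 0 and 1.79 in folic acid 1 to 4 and 19.3, 38.1, 7.57 and 9.02 in vehicle 1 to 4 (limma adjusted p = 0.0775). Junb, a member of the AP-1 family, was 74.4, 55.4, 39 and 60.8 against 40.7, 15.6, 42.2 and 21, with overlap. Ppargc1a, a coactivator of mitochondrial genes, was 491, 613, 596 and 544 against 759, 833, 754 and 766, every folic acid library being lower (log2 -0.48, SE 0.10, limma adjusted p = 0.0675; log2 -0.37, adjusted p = 0.354 under the Y share). It was the 1 of 9 genes of its list without overlap.

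Dbp and Hmox1 differed widely among the vehicle libraries. Dbp, an output gene of the clock, was 23.4, 42, 369 and 389 in vehicle 1 to 4 and 188, 317, 322 and 242 in folic acid 1 to 4, so vehicle 1 and 2 were far below the other 6 libraries. Hmox1, haem oxygenase, was 18.3, 17.6, 151 and 123 in vehicle and 86.2, 237, 61.9 and 91.3 after folic acid, with vehicle 1 and 2 again the lowest.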
